A study of Mus musculus with 2 samples.

Results

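The fibroblasts of total mouse brain were 69 cell barcodes among 9367 barcodes of that sample that passed the quality filter, a share of 0.737% (exact Clopper-Pearson 95% interval 0.574% to 0.931%). They were chosen by a rule on measured counts. A barcode needed at least 500 detected genes and at most 10% of its unique molecular identifiers (UMIs, each counting 1 captured RNA molecule) from mitochondrial genes. It also needed a UMI of at least 4 of the 9 genes Dcn, Lum, Col1a1, Col1a2, Col3a1, Igf2, Slc6a13, Mgp and Islr, and of at most 2 of the 4 endothelial genes Cldn5, Flt1, Pecam1 and Cdh5. The series holds 19443 such filtered barcodes in 2 pooled samples, each made with the 10x 3′ droplet method from enzymatically digested brain tissue. The total brain sample pooled wild-type and STING-KO mice of both sexes, 2 and 24 months old per its title (a second label reads 240mo). The sorted brain sample pooled male wild-type and STING-KO mice, 3 and 12 months old, whose cells had been sorted by flow cytometry, by a gate that the labels do not describe. STING is the adaptor protein of cytosolic DNA sensing, and the sources used here do not describe the knockout allele. Per the design text, 2 mice were grouped per genotype and age.

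Fibroblasts of the brain sit in the membranes around it and in the sleeve around its larger vessels, not among neurons. The outer membrane (dura), the middle one (arachnoid) and the innermost (pia, which follows vessels inward as the perivascular sheath) each hold fibroblasts of their own kind. They lay down collagens, proteoglycans and, toward the pia, the basement membrane that borders the brain, and they carry transporters that shape the fluid around it. Arachnoid and dural border cells are joined by cell junctions and are known for proteins such as cadherins and claudin-11. Pericytes and smooth muscle cells, together called mural cells, are the other stromal cells of the vessel wall.

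The 4 barcode suffixes of the total brain matrix held 5 of 1092, 9 of 1472, 31 of 3644 and 24 of 3159 filtered barcodes as fibroblasts. By 10x convention such suffixes mark separate wells, which was not checked here. The labels tie no suffix to an age, sex or genotype, so suffixes were never grouped and give only a spread of values. The design has 1 sample per group, so no test was possible and no p-value is given. Intervals are exact Poisson, binomial or ratio intervals at 95% and cover counting error only. The 69 barcodes held 401586 UMIs, with a median of 3703 per barcode (range 620 to 34758), against a median of 1685 in the 9298 other filtered barcodes. The 10 deepest fibroblast barcodes held 48.4% of their UMIs, so summed levels lean on them. In the total brain matrix 23 barcode sequences occurred in more than 1 suffix, none of them a fibroblast's, and 5 sequences occurred in both matrices. No doublet caller was used. Of the 69 barcodes, 38 held UMIs of at least 2 markers of another counted class, and 31 did not. That count left out neuronal and mural markers, of which 32 and 18 of the 69 barcodes held at least 2.

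The rule genes themselves are given as a description, since they selected the barcodes. Levels are summed UMIs per 1000000 (CPM). Dcn, the collagen-binding proteoglycan decorin, had 3187, 757, 3052 and 2063 CPM in the fibroblasts of suffixes 1 to 4, against 7.49, 10.7, 15.7 and 18.1 CPM in the other barcodes of the same suffixes. Col1a2, a chain of type I collagen, had 679, 1096, 1653 and 1134 CPM in fibroblasts and 18.9 CPM over all other barcodes. The type III collagen gene Col3a1 had 384, 458, 1029 and 554 CPM in fibroblasts and 3.26 CPM in the others. The levels of these genes did not overlap between the fibroblasts and the other barcodes in any suffix. Slc6a13, a GABA and taurine transporter, was lower in suffixes 1 and 2 (148 and 219 CPM) than in suffixes 3 and 4 (914 and 784 CPM). Mgp, matrix Gla protein, an inhibitor of calcification, was higher in suffixes 1 and 2, with 10446, 35854, 8822 and 2267 CPM. Col1a2 was found in 63 of the 69 fibroblasts (91.3%), Col3a1 and Col1a1 in 54 each, Dcn in 52 (75.4%), Slc6a13 in 48, Islr in 42, Mgp in 35, Lum in 31 and Igf2 in 17.

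**Figure D1:**
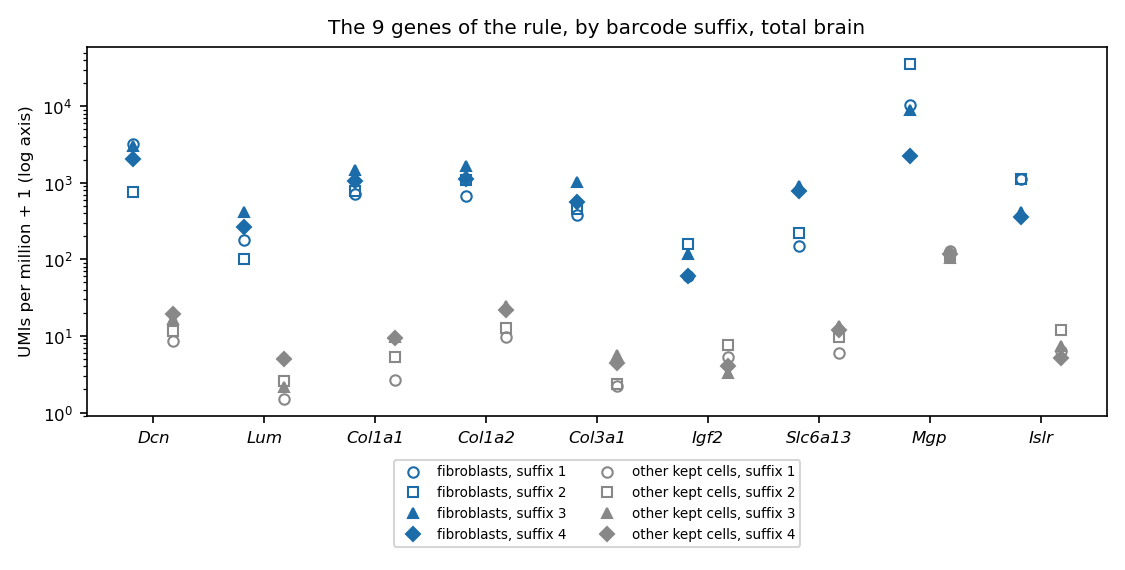
Summed level of each rule gene (UMIs per 1000000 plus 1, log axis) in fibroblasts (blue) and in the other filtered barcodes of total brain (grey), 1 symbol per barcode suffix. Each blue symbol lies above all grey ones of its gene, and Slc6a13 is lower and Mgp higher in suffixes 1 and 2 than in 3 and 4, with Mgp at 35854 in suffix 2 and 2267 in suffix 4.

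Neurons, which should lack these genes, give a background for UMIs of the rule genes. Whether free RNA or doublets gave these UMIs was not tested, and 26 neuron barcodes held at least 2 rule genes. Among 3799 neuron barcodes (median 1822 UMIs) 1.37% held a UMI of Dcn, 0.895% of Col1a2, 0.290% of Col3a1 and 0.474% of Slc6a13, while Mgp reached 5.13%. With every barcode thinned to 1000 UMIs, which 65 of the 69 fibroblasts and 3096 of the neurons could reach, Dcn was found in 53.8% of fibroblasts and 0.517% of neurons. Col1a2 was then found in 63.1% of fibroblasts and 0.420% of neurons, and Slc6a13 in 58.5% and 0.226%. These genes chose the fibroblasts, so the shares are a description at either depth.

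The values at the edge of the rule are also a description. The 25 members with exactly 4 of the 9 genes had rule genes summing to 11933 CPM at a median of 2516 UMIs. Just outside, 52 barcodes with 3 genes had a sum of 1353 CPM at a median of 3236 UMIs. Mgp made up 9865 CPM of the sum inside the edge and 794 CPM of that outside. Another 20 barcodes held exactly 4 rule genes but 3 or 4 endothelial genes; they summed to 848 CPM at a median of 26029.5 UMIs. Of the members, 44 had 5 or more rule genes, 24 had 7 or more and 4 had all 9. The endothelial genes were absent in 33 members, 1 was present in 23 and 2 in 13.

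The markers of the name, Dcn, Col1a2, Col3a1 and Slc6a13, are rule genes, so their presence is no check of it, and the barcodes were described by the leading genes of their clusters. Clustering gave 5 subclusters, of which 2 were joined after their values had been seen. Both held Slc6a13 at close levels (2226 and 2134 CPM) and no UMI of Slc47a1. Their 8 leading genes had none in common, with Col22a1, Glipr2 and Hsd11b1 first in 1 and Zfp74, Igsf10 and Casp12 in the other. Slc6a13, the rule gene by which the joined set is called, was not among them. The largest set, called Slc6a13-led here, held 32 barcodes; Dcn was found in 30 of them, Col1a2 in 31, Col3a1 in 29 and Slc6a13 in 31. The second, called Slc47a1-led, held 15 barcodes; Col1a2 was found in all 15, Dcn in 9, Col3a1 in 10 and Slc6a13 in 1. A mixed set of 18 barcodes was led by Ptprz1, Slc1a2, Rims2, Lgi1, Slco1c1, Cnr1, Stab1 and Csf1r, which are genes of glia, neurons, vessels and macrophages. The last 4 barcodes were led by Higd1b, Cox4i2 and Art3, genes known from pericytes. Slc6a13 was also found in 12 of the 18 mixed barcodes and in all of these 4. In these 22 barcodes the leading genes were those of other classes and went against the name, so they are called by the rule and those genes; the other 47 were not led by such genes. The 15 Slc47a1-led barcodes stayed together as 1 cluster at resolutions 0.5 and 2 as well, and at 0.5 the 4 pericyte-gene-led barcodes joined the 32.

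Depth and origin differed among the sets. The Slc6a13-led barcodes came from suffixes 1 to 4 as 2, 1, 17 and 12 barcodes with a median of 3143.5 UMIs. The Slc47a1-led barcodes came as 1, 5, 6 and 3 with a median of 7653 UMIs, and held 44.2% of all fibroblast UMIs in 21.7% of the barcodes. Mitochondrial genes made up 3.83% of UMIs in the Slc6a13-led and 7.65% in the Slc47a1-led barcodes, and ribosomal protein genes 1.24% and 7.76%. What these differences contribute to the gene levels below was not tested.

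A pair of lists of 20 genes each, reported for pial and perivascular fibroblasts and for dural and arachnoid cells, separated the sets barcode by barcode. The pial list took 0.536% to 3.78% of a barcode's UMIs in the Slc6a13-led set (median 1.71%) and 0.0411% to 0.318% in the Slc47a1-led set (median 0.143%). The dural list took 0% to 1.14% (median 0.144%) in the Slc6a13-led set and 0.795% to 7.32% (median 2.80%) in the Slc47a1-led set. The pial shares of the sets did not overlap, and 1 Slc6a13-led barcode lay within the dural range of the Slc47a1-led set. Clustering used these genes too, and both lists hold genes of the fibroblast rule, so the separation is a description. Of 20 pial and 19 dural genes compared with the other barcodes, 18 in each list lay outside the rule. In the Slc47a1-led set the dural list summed to 37700 CPM, and the rule gene Mgp had 23084 CPM. The separation by barcode without the rule genes was not tested. Slc6a13 and Slc47a1 were found together in 2 of the 69 barcodes, Slc6a13 alone in 46, Slc47a1 alone in 14 and neither in 7.

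**Figure D2:**
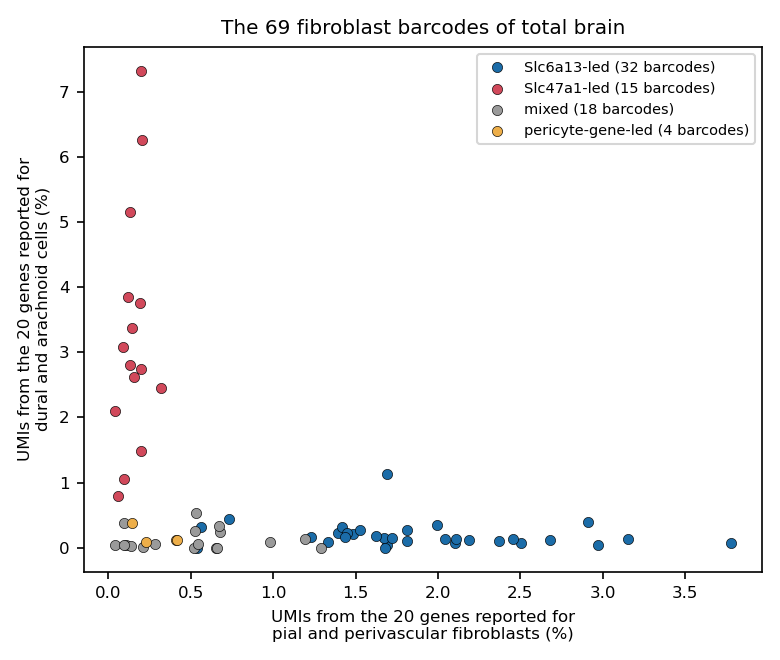
Share of each fibroblast barcode's UMIs from 20 genes reported for pial and perivascular fibroblasts (x axis, %) and from 20 genes reported for dural and arachnoid cells (y axis, %). Slc6a13-led barcodes (blue, 32) run along the x axis up to 3.78% and Slc47a1-led barcodes (red, 15) along the y axis up to 7.32%, while the mixed (grey, 18) and pericyte-gene-led (orange, 4) barcodes stay at or below 0.535% on the y axis and the mixed ones reach 1.29% on the x axis.

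The Slc6a13-led barcodes carried the interstitial matrix of classical fibroblasts and the genes of the basement membrane. All comparisons between the sets are descriptions of clusters, given as summed CPM with the number of barcodes holding a UMI. Dcn had 8215 CPM in Slc6a13-led barcodes (30 of 32), against 225 CPM in Slc47a1-led ones (9 of 15), 36.5-fold higher with an interval of 26.6 to 51.4. Its level was 8215 and 6349 CPM in the Slc6a13-led barcodes of suffixes 3 and 4, against 118 and 282 CPM in the Slc47a1-led barcodes of suffixes 2 and 3, which are the suffixes with the most barcodes of each set. Lum, the proteoglycan lumican, had 1018 and 11.3 CPM (2 UMIs in the Slc47a1-led set), a ratio of 90.4 with an interval of 24.4 to 756. The fibrillar collagens differed less: Col1a2 was 2.22-fold higher (2668 against 1199 CPM), Col1a1 2.38-fold (2347 against 985 CPM) and Col3a1 5.15-fold (1944 against 377 CPM).

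Of the basement membrane genes, 14 of 15 compared were at least 2-fold higher in Slc6a13-led barcodes and none was lower, with a median log2 ratio of 4.20. Over all 5477 genes compared, 28.7% were at least 2-fold higher and 28.7% at least 2-fold lower, with a median of 0.10. These shares are the background for every list count between the sets given below. Lama1, the laminin alpha-1 chain, had 1027 CPM in 26 Slc6a13-led barcodes and no UMI in Slc47a1-led ones, at least 60.8-fold higher against a floor of 3 UMIs over the set. The laminin chain Lamc1 had 1238 and 33.8 CPM, 36.6-fold, and Col4a1, of the type IV collagen network, had 1302 and 78.8 CPM, 16.5-fold. Hspg2, which encodes perlecan, had 431 and 22.5 CPM, and Nid2, a linker of laminin and collagen, 248 and 5.63 CPM. The collagens that lie at basement membranes went with them: Col15a1 had 1632 CPM in 27 Slc6a13-led barcodes and 5.63 CPM (1 UMI) in the Slc47a1-led set, and Col18a1 had 578 and 5.63 CPM. Sparc, a collagen-binding matricellular protein, differed by less than 2-fold, at 1715 and 1210 CPM.

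Membrane transporters split between the sets, with 14 of 27 compared higher and 13 lower in Slc6a13-led barcodes, so that none was within 2-fold. The Slc6a13-led side held carriers of amino acids. Slc7a11, the cystine and glutamate exchanger, had 3585 CPM in 29 of 32 barcodes and no UMI in Slc47a1-led ones, at least 212-fold higher. Slc6a20a, a proline carrier, had 1504 CPM and Slc1a3, a glutamate carrier, 1339 CPM, both with no UMI in the Slc47a1-led set, at least 89.0-fold and 79.3-fold higher. Slc6a13 had 2182 and 5.63 CPM (1 UMI), a ratio of 388 with an interval of 68.9 to 15372. The organic anion carriers Slc22a6 and Slc22a8 had 486 and 495 CPM, each against 1 UMI (5.63 CPM). Some of these genes were also present in mural cells, where Slc6a20a had 1155 and Slc22a8 441 CPM.

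Secreted and signalling genes of the Slc6a13-led set included lipid carriers, chemokine and complement genes and growth factor genes. Apod, the lipid carrier apolipoprotein D, had 25158 and 664 CPM, 37.9-fold, with 25341 and 21319 CPM in suffixes 3 and 4. Cp, the copper-binding ferroxidase ceruloplasmin, had 2393 and 78.8 CPM, 30.4-fold. Pdgfra, the platelet-derived growth factor receptor alpha, had 1779 and 33.8 CPM, 52.7-fold. The chemokine gene Cxcl12 had 825 and 231 CPM; 6 of 9 chemokine and cytokine genes and 3 of 4 complement genes compared were higher and 1 chemokine or cytokine gene was lower. Colec12, a scavenger receptor, had 1604 CPM and no UMI in Slc47a1-led barcodes, and so had the adhesion receptor Vcam1, at 596 CPM. Edn3, an endothelin, had 752 CPM against no UMI, and Bmp7, a growth factor of the TGF-beta family, had 541 and 39.4 CPM. Ptgds, prostaglandin D synthase, had 12460 and 1723 CPM, but it was uneven, with 18352 CPM in suffix 3 and 3116 CPM in suffix 4 of the Slc6a13-led set.

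Markers of other classes in the Slc6a13-led set were uneven. The 10 mural markers summed to 6390 CPM, of which Vtn, vitronectin, a plasma and matrix protein, made up 6235 CPM in 27 barcodes, whereas Rgs5, a pericyte gene, had 2 UMIs. In mural cells Vtn had 18871 and Rgs5 5517 CPM. The 8 neuronal markers summed to 2934 CPM, of which the long noncoding RNA Snhg11 made up 2741 CPM in all 32 barcodes, while Snap25, of the synaptic vesicle machinery, had 55.0 CPM. Microglial markers summed to 211 CPM. The border macrophage markers had 1 UMI in all (9.17 CPM), and the lymphocyte and ependymal markers had none.

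The Slc47a1-led barcodes carried other transporters and secreted proteins, and the leading genes here defined the cluster. Slc47a1, which exports organic cations and drugs, had 1165 CPM in all 15 barcodes and no UMI in the 32 Slc6a13-led barcodes, where 3 UMIs would be 27.5 CPM. Nov, a secreted matricellular protein also called CCN3, had no UMI in the Slc6a13-led set and 6064 CPM in all 15 Slc47a1-led barcodes, a ratio of at most 0.00454. Mgp had 248 CPM in 9 Slc6a13-led barcodes and 23084 CPM in all 15 Slc47a1-led ones, with 42385 and 18010 CPM in the Slc47a1-led barcodes of suffixes 2 and 3. The suffix spread of Mgp over all fibroblasts went with these barcodes, which were 5 of 9 in suffix 2 and 3 of 24 in suffix 4.

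The 13 transporters on the Slc47a1-led side included carriers of ions, nutrients and drugs. Slc26a2, a sulfate carrier, had 27.5 CPM (3 UMIs) in Slc6a13-led and 1469 CPM in Slc47a1-led barcodes. Slc4a10, a bicarbonate carrier, had no UMI and 1396 CPM, and the anion exchanger Slc26a7 no UMI and 574 CPM. Slc38a2, a neutral amino acid carrier, had 312 and 3896 CPM, and Slc23a2, a vitamin C carrier, 73.3 and 794 CPM. Abcg2, a drug exporter of barrier cells, had 55.0 CPM in 6 of 32 and 704 CPM in 13 of 15 barcodes. Junction genes were mixed, with 6 of 19 adhesion and junction genes higher and 8 lower in Slc6a13-led barcodes (median -0.23). Over all genes compared, 28.7% were higher and 28.7% lower. Of 5 arachnoid barrier genes, 2 were higher and 3 lower. The 8 arachnoid barrier markers summed to 1045 CPM in Slc6a13-led and 597 CPM in Slc47a1-led barcodes. Of these markers, 4 had no UMI in the Slc6a13-led set and 2 had none in the Slc47a1-led set. The sums thus rest on part of the list and do not rank the sets for junction genes. Cldn11, a tight junction claudin, had no UMI in Slc6a13-led barcodes and 310 CPM in 12 of 15 Slc47a1-led ones, and Cdh1, E-cadherin, no UMI and 124 CPM in 8 of 15. Gja1, connexin 43, had 321 and 1284 CPM.

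Secreted regulators and binding proteins of the Slc47a1-led set included Rspo3, an enhancer of WNT signalling, with no UMI and 1019 CPM. The insulin-like growth factor binding protein gene Igfbp6 had 101 CPM (2 of 32 barcodes) and 1886 CPM (14 of 15), and Igfbp5 468 and 3581 CPM. Crabp2, an intracellular binding protein for retinoic acid, had no UMI and 265 CPM. Fn1, fibronectin, had 18.3 CPM (2 UMIs) and 783 CPM, and Col6a1, of the microfibrillar type VI collagen, 358 and 811 CPM. Penk, the precursor of enkephalins, and Prg4, the lubricant lubricin, had no UMI in the Slc6a13-led set. They were uneven among the Slc47a1-led barcodes, at 23.6 and 94.3 CPM in suffix 2 and at 1773 and 1700 CPM in suffix 3.

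Some genes did not separate the sets. Efemp1, an extracellular fibulin, had 788 CPM in 27 of 32 and 1002 CPM in 14 of 15 barcodes, a ratio of 0.787 with an interval of 0.601 to 1.02. Htra3, a secreted protease, had 422 CPM in both, with a ratio of 0.999 (0.676 to 1.46). Islr, a rule gene, had 605 and 777 CPM, a ratio of 0.779 (0.572 to 1.05). Gjb6, connexin 30, had 293 and 445 CPM, a ratio of 0.660 (0.423 to 1.01). Each interval includes 1, which does not show that the levels are equal.

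**Figure D3:**
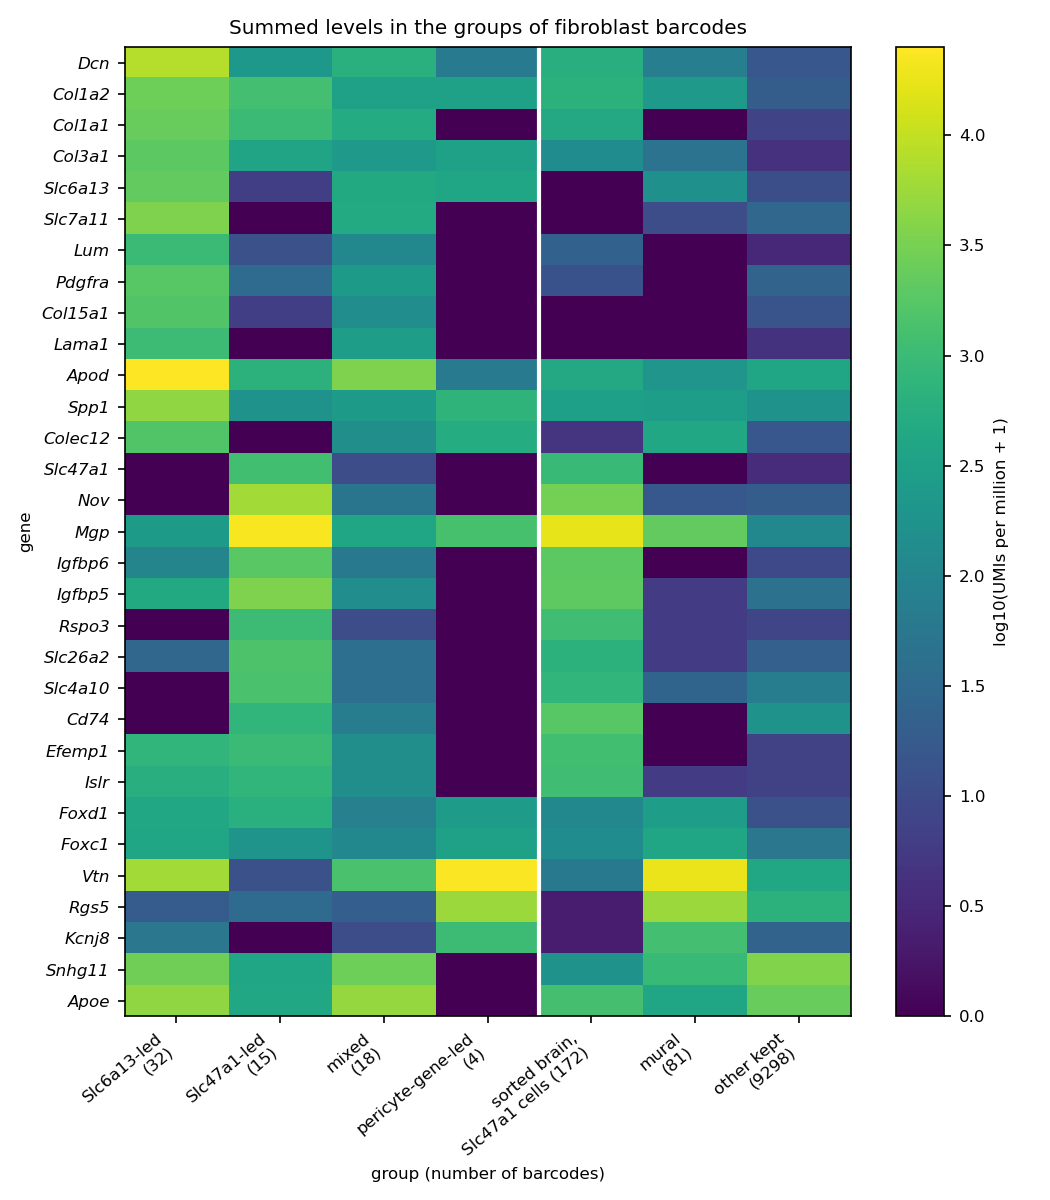
Summed levels of genes named in the text and a few others (colour, log10 of UMIs per 1000000 plus 1) in the 4 sets of fibroblast barcodes of total brain and, right of the white line, in Slc47a1 cells of sorted brain, mural cells and the other filtered barcodes of total brain. Lama1 reads 1027 in the Slc6a13-led and 0 in the Slc47a1-led column, Slc47a1 reads 0 and 1165, and Vtn and Rgs5 are high in the pericyte-gene-led and mural columns.

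Early response, antigen presentation and interferon genes lay on the Slc47a1-led side. None of the 22 early response genes known to be induced by tissue dissociation was higher in Slc6a13-led barcodes. Of them 19 were lower, with a median log2 ratio of -3.24. Against mural cells, none of the 22 was higher and 17 were lower in the Slc6a13-led set (median -2.92). In the Slc47a1-led set 7 were higher and 4 lower than in mural cells (median 0.85). Over all genes, 16.2% were higher and 25.3% lower than in mural cells in the Slc6a13-led set. In the Slc47a1-led set these shares were 19.7% and 30.6%. Fos, a transcription factor gene of that list, had no UMI in the Slc6a13-led set and 1391 CPM in 9 Slc47a1-led barcodes, at 118 CPM in suffix 2 and 2430 CPM in suffix 3. Of 13 antigen presentation genes, none was higher and 12 were lower (median -2.18). Against mural cells, none of 5 compared was higher or lower in the Slc6a13-led set. In the Slc47a1-led set 10 of 13 were higher and none lower than in mural cells. Cd74, the class II invariant chain, had no UMI in the Slc6a13-led set and 799 CPM in 8 of 15 Slc47a1-led barcodes. Of those 8 barcodes, 2 held no microglial or border macrophage marker, 2 held 1 and 4 held at least 2. The 8 microglial markers summed to 211 CPM in Slc6a13-led and 225 CPM in Slc47a1-led barcodes, and the 6 border macrophage markers to 9.17 and 5.63 CPM.

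Of 16 interferon response genes compared, 1 was higher and 14 were lower in Slc6a13-led barcodes (median -2.24). Against mural cells, 1 of 13 was higher and 6 were lower in the Slc6a13-led set. In the Slc47a1-led set 12 of 21 were higher and 2 lower than in mural cells. Isg15, a ubiquitin-like interferon product, had no UMI in the Slc6a13-led set and 338 CPM in 6 Slc47a1-led barcodes, at 23.6 CPM in suffix 2 and 594 CPM in suffix 3. Ifitm3, a membrane protein against virus entry, had 229 CPM in 16 of 32 and 1165 CPM in 12 of 15 barcodes. Mitochondrial and ribosomal shares, given above, and depth lay on the same side as these 3 lists, and their part was not tested.

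Collagens other than the rule genes were mixed, with 8 of 16 higher and 5 lower in Slc6a13-led barcodes (median 0.98), and so were insulin-like growth factor genes, with 4 of 10 higher and 5 lower (median -1.40). Of 19 meningeal transcription factor genes, 8 were higher and 6 lower. Zic1, a zinc finger factor, had 935 and 349 CPM and the forkhead gene Foxc1 385 and 191 CPM, while the forkhead gene Foxc2 had 36.7 and 242 CPM. The lists by which the sets were plotted counted 15 of 17 pial and perivascular genes higher and 1 lower, and 3 of 14 dural and arachnoid genes higher and 10 lower. Trimmed-mean scaling moved log2 ratios by -0.29 before 1 CPM was added to each level. It gave 1246 genes at least 2-fold higher and 1843 at least 2-fold lower, against 1574 and 1571 by total UMIs. Suffix 3 held 23 of the 47 barcodes, and without it 714 genes were higher and 985 lower.

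**Figure D4:**
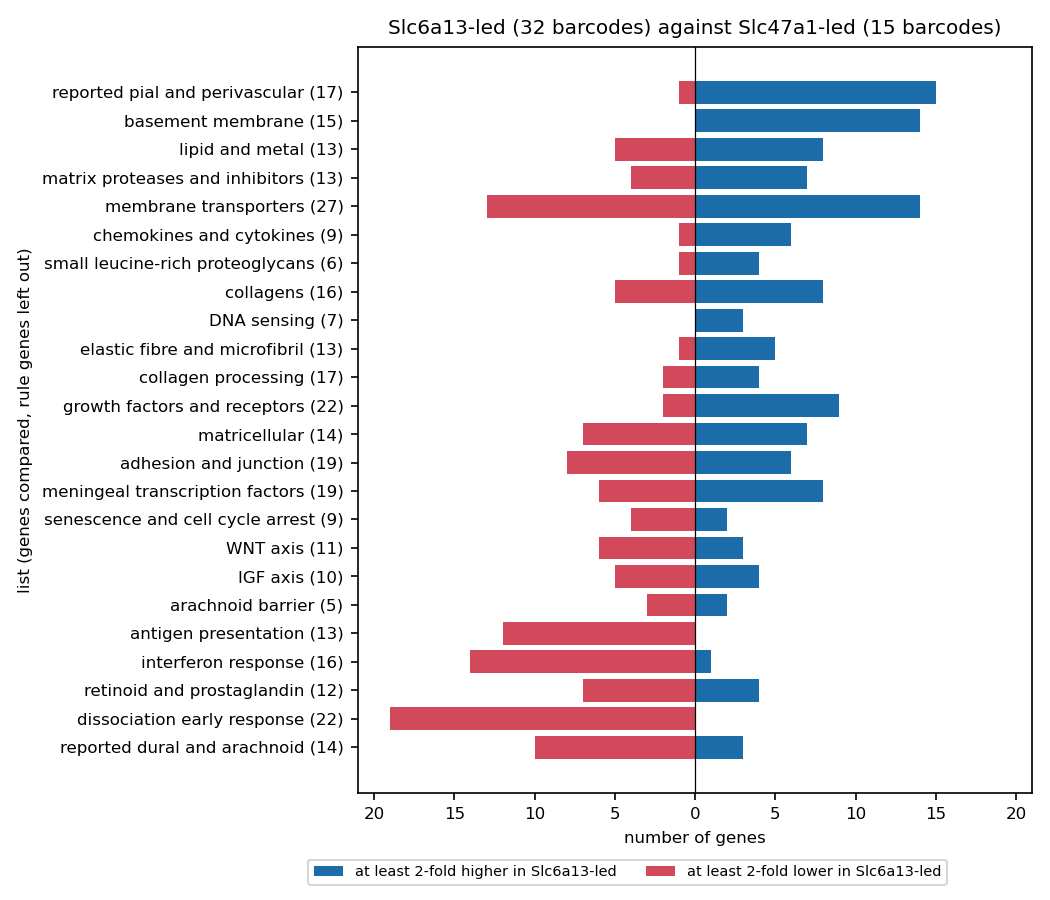
Number of genes in each list at least 2-fold higher (blue, to the right) or lower (red, to the left) in Slc6a13-led than in Slc47a1-led barcodes, rule genes left out, with the number compared in brackets. Basement membrane genes lie on the right (14 of 15) and early response (19 of 22) and antigen presentation genes (12 of 13) on the left.

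The 22 remaining barcodes carried genes of other classes. In the 18 mixed barcodes Dcn had 622 CPM, Col1a2 331 CPM and Slc6a13 461 CPM, each below its Slc6a13-led level, and Dcn was found in 12. The noncoding RNA Meg3, high in neurons, had 7132 CPM there. The complement gene C1qa, high in microglia, had 1194 CPM in 9 barcodes. The border macrophage markers summed to 1063 CPM in the mixed set, with Mrc1, the mannose receptor, at 341 CPM in 3 barcodes. At least 2 markers of another counted class were found in 14 of these 18. They were found in 14 of 32 Slc6a13-led and 8 of 15 Slc47a1-led barcodes. Neuronal and mural markers were not in that count. In the 4 pericyte-gene-led barcodes Vtn had 24182 CPM, Rgs5 5454 CPM and Kcnj8, a potassium channel of pericytes, 1051 CPM, close to the 18871, 5517 and 1226 CPM of mural cells. Col1a1 had no UMI in these 4 barcodes and Dcn 1 UMI, while Col1a2, Col3a1 and Slc6a13 were found in all 4.

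Against the other filtered barcodes of total brain, 10.1% of 18122 genes were at least 2-fold higher in fibroblasts and 25.1% at least 2-fold lower, with a median log2 ratio of -0.38. The rule used this contrast, so it is a description. Beyond the rule genes, the 24 genes with the highest ratios were taken among those at 200 CPM or more and found in at least 25% of fibroblasts. Efemp1 had 885, 877, 794 and 392 CPM in the fibroblasts of suffixes 1 to 4 and 6.01 CPM in the other barcodes, 116-fold higher (96.0 to 139). Cyp1b1, an oxidase of retinoids and oestrogens, had 29.5, 120, 230 and 290 CPM and 1.33 CPM in the others, 163-fold over the sum. Lama1 had 351 and 3.44 CPM, 102-fold, and Igfbp6 877 and 8.40 CPM, 104-fold. Igfbp6 came from 19 of 69 barcodes and Lama1 from 38.

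The other 20 genes had ratios from 30.7 to 82.4. Among them, the proteoglycan biglycan gene Bgn was the most widely found, in 55 of 69 fibroblasts at 844 CPM, against 27.5 CPM in the others. Mrc2, a collagen uptake receptor, was found in 46 at 329 CPM, and Foxd1, a forkhead factor, in 43 at 413 CPM. Cped1 was found in 40 and Col12a1, a fibril-associated collagen, in 39. Tbx18, a T-box factor, had no UMI in suffixes 1 and 2 and 285 and 273 CPM in suffixes 3 and 4. The rest were Gjb2, Crispld2, Htra3, Serping1, Igfbp5, Slc7a11, Col15a1, Col6a2, Fgl2, Thbs1, Bmp4, Colec12, Slc26a2 and Gpc3. By list, 15 of 21 collagens, 13 of 16 basement membrane genes, 6 of 8 small proteoglycans and 24 of 30 meningeal transcription factor genes were higher. None of 12 proliferation genes was higher and 3 were lower, beside 10.1% higher and 25.1% lower over all genes. The median log2 ratio of the proliferation genes, -0.34, was near the -0.38 of all genes.

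Mural cells, 81 barcodes with a UMI of at least 4 of 10 mural markers, were the nearest stromal cells of the same sample, with a median of 1890 UMIs. Of 9229 genes compared, 19.7% were at least 2-fold higher and 12.3% at least 2-fold lower in fibroblasts, with a median log2 ratio of 0.07. Mural cells were chosen on the 10 mural markers and on having under 4 rule genes, so the lower level of all 10 in fibroblasts follows from that choice. The fibroblast rule set no limit on them, and 5 of the 69 fibroblasts held at least 4. Collagens outside the rule were higher for 15 of 18 genes (median 2.59), elastic fibre genes for 11 of 14 and retinoid and prostaglandin genes for 13 of 16 (median 5.06). Contractile and myofibroblast genes were lower for 7 of 8. Basement membrane genes were 4 of 16 higher and 3 lower (median -0.47) over all fibroblasts, which joins unlike sets. In Slc6a13-led barcodes 7 of 16 were higher and 2 lower than in mural cells (median 0.99), where 16.2% of all genes were higher and 25.3% lower. In Slc47a1-led barcodes none of 12 was higher and 12 were lower (median -3.12), where 19.7% of all genes were higher and 30.6% lower.

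Genes of the fibroblasts that had no UMI in mural cells came from 1 set or both. Pdgfra had 560 CPM in fibroblasts (39 of 69), Igfbp6 877 CPM, Efemp1 695 CPM, Slc47a1 518 CPM and Col15a1 481 CPM, where 3 UMIs in mural cells would be 15.2 CPM. Col6a1 and Cd74 had 476 and 371 CPM and likewise no mural UMI. Lower in fibroblasts were Art3, an ADP-ribosyltransferase family gene (24.9 against 851 CPM) and Casq2, a calcium store protein of muscle (7.47, from 3 UMIs, against 426 CPM). All Art3 UMIs of the fibroblasts lay in the pericyte-gene-led barcodes (657 CPM). Des, the muscle filament protein desmin, had 1 UMI in fibroblasts (2.49 CPM) and 157 CPM in mural cells. Genes of the vessel wall membrane were shared in part: Col4a1 had 1302 CPM in the Slc6a13-led set and 790 CPM in mural cells, whereas Lama1 had 1027 CPM and no UMI there.

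The same rule in sorted brain chose 200 of 10076 filtered barcodes, 1.98% (1.72% to 2.28%), as 53, 25, 61 and 61 in its 4 suffixes. Sorting, age, sex and run differ between the samples together and cannot be told apart. The make-up of the chosen barcodes differed: a UMI of Slc47a1 was found in 16 of 69 barcodes of total brain (23.2%, 13.9% to 34.9%) and in 172 of 200 of sorted brain (86.0%, 80.4% to 90.5%). Slc6a13 without Slc47a1 was found in 46 of 69 (66.7%) in total brain and in 7 of 200 (3.5%, 1.42% to 7.08%) in sorted brain. The median depths were 3703 UMIs in total and 3906 UMIs in sorted brain. Of 9 subclusters of the sorted barcodes, 8 had Slc47a1 between 681 and 1128 CPM. The ninth, of 16 barcodes, had Slc6a13 at 208 CPM, Lama1 at 79.2 CPM and Dcn at 4732 CPM, and 445 CPM of Slc47a1.

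Because the sets differed in share, all chosen barcodes of total brain against those of sorted brain mostly compare unlike cells. Of 10389 genes, 38% were at least 2-fold higher and 13.2% at least 2-fold lower in total brain, with a median log2 ratio of 0.50. With trimmed-mean scaling, which moved the ratios by -0.60 before 1 CPM was added, the numbers were 2610 and 2743. By total UMIs they were 3947 and 1372. All 15 basement membrane genes compared were higher in total brain, but so were all 7 neuronal markers, and the part of neuronal RNA was not tested. The choroid plexus transthyretin gene Ttr had 632 CPM in total brain and 10877 CPM in sorted brain, where all 200 barcodes held it. Xist, the RNA of the inactive X chromosome, had 1233 CPM in total brain, which pooled both sexes, and no UMI in the male sorted brain.

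A closer match was that of the 15 Slc47a1-led barcodes of total brain with the 172 Slc47a1 barcodes of sorted brain, whose medians were 7653 and 4174.5 UMIs. At least 2 markers of another counted class were found in 8 of the 15 and in 121 of the 172. At least 2 microglial markers were found in 7 of the 15 and in 113 of the 172. Slc47a1 chose the sorted barcodes and helped to define the cluster in total brain, so its level is a description: 1634, 1509, 918 and 1135 CPM in total brain, suffixes 1 to 4, against 956, 1095, 1035 and 853 CPM in sorted brain. Igfbp6 had 1634, 2593, 1721 and 1405 CPM in total brain, against 1853, 1877, 2146 and 2018 CPM in sorted brain, a ratio of 0.948 (0.841 to 1.07). Rspo3 had 1019 and 1102 CPM and Fxyd5, a regulator of the sodium pump, 3372 and 4039 CPM. Nov had 6064 and 3027 CPM, 2.00-fold higher in total brain, though its suffix ranges overlapped (3605 to 7509 and 1697 to 3719 CPM). Mgp had 23084 and 17440 CPM, 1.32-fold.

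Of 8468 genes compared between those barcodes, 18.6% were at least 2-fold higher and 13.5% at least 2-fold lower in total brain (median log2 ratio 0.08). Trimmed-mean scaling moved the ratios by -0.30 before 1 CPM was added. It gave 1061 and 1737 genes, against 1578 and 1141. Of the meningeal transcription factor genes 9 of 22 were higher and none was lower (median 0.74), and of the collagens 4 of 12 and none (median 0.81). Foxd1 had 324 to 1009 CPM over the suffixes of total brain and 54.3 to 174 CPM over those of sorted brain, 5.36-fold higher. Of the early response genes 5 of 22 were higher and 2 lower, with a median of 0.00, close to the share over all genes. Among them Jund, a transcription factor, had 1070 and 82.6 CPM, 12.9-fold, and Klf2, a factor of the same kind, 1019 and 107 CPM, 9.49-fold. Igfbp7, an insulin-like growth factor binding protein, had 315 and 30.7 CPM but no UMI in suffix 4 of total brain. Prg4 had 1222 and 297 CPM, and its suffix ranges overlapped.

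The genes lower in total brain included ribosomal protein genes and markers of other classes. Ttr had 214 CPM in the total brain barcodes and 5851 CPM in the sorted ones, Hbb-bs, a haemoglobin chain, 124 and 2664 CPM, and C1qa 28.2 and 314 CPM. In sorted brain, suffix 3 held most of the haemoglobin signal, at 8043 CPM of Hbb-bs against 125 to 399 CPM in the other suffixes. Of the 8 microglial markers 7 were lower and none was higher, with sums of 225 CPM in total and 1442 CPM in sorted brain. Cd74 had 144 to 2004 CPM over the suffixes of total brain and 78.2 to 2995 CPM over those of sorted brain; in sorted brain 79 of the 120 barcodes with Cd74 held at least 2 microglial or border macrophage markers. Ribosomal protein genes took 7.76% of UMIs in total and 11.4% in sorted brain. The part of these differences in the other ratios was not tested.

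**Figure D5:**
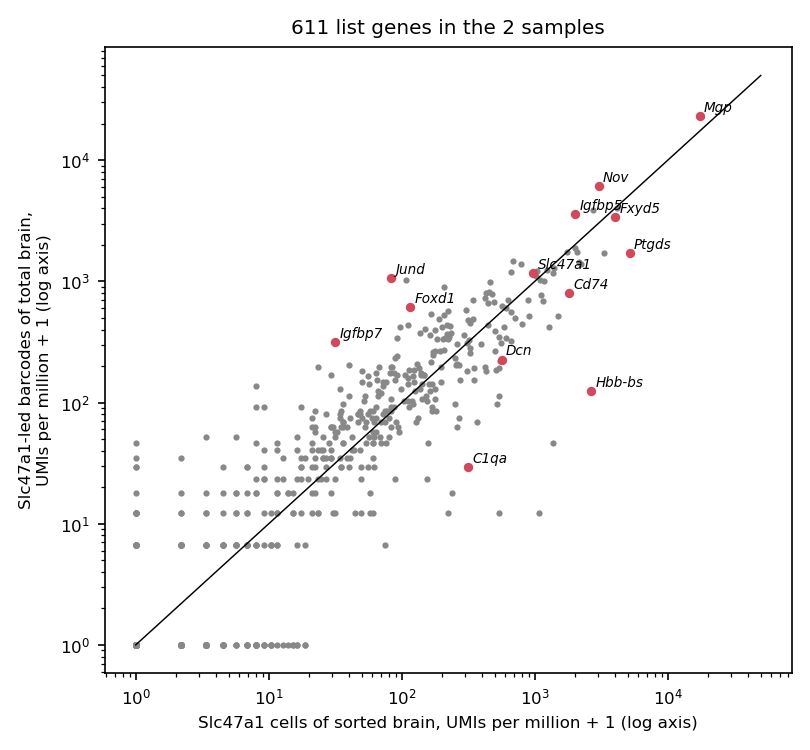
Level of 611 list genes in the 15 Slc47a1-led barcodes of total brain (y axis) and the 172 Slc47a1 barcodes of sorted brain (x axis), in UMIs per 1000000 plus 1 on log axes, with the line of equal levels. Slc47a1 and Fxyd5 lie near the line, Jund (1070 and 82.6), Foxd1 and Igfbp7 above it, and Hbb-bs (124 and 2664) and C1qa below it.

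The gene of STING, Tmem173 in these files, was scarce in fibroblasts. It had 3 UMIs in 2 barcodes, 7.47 CPM (1.54 to 21.8), against 16.6 CPM in the other filtered barcodes and 10.1 CPM in mural cells, and 10.8 CPM in the chosen barcodes of sorted brain. Since each suffix may hold either genotype, this does not check the knockout. Mb21d1, which encodes the DNA sensor cGAS, had 2 UMIs in 2 barcodes, 4.98 CPM (0.603 to 18.0). Differences of the levels of either gene were not detectable at this depth. Among 15 DNA sensing genes, 4 were at least 2-fold higher and 2 lower in fibroblasts than in the other barcodes, and among 30 interferon response genes 5 were higher and 2 lower, beside the 10.1% and 25.1% of all genes.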

How the data were processed

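Single-cell RNA sequencing was analysed in 2 pooled mouse brain samples, 1 per group. The deposited values are raw UMI counts per gene and barcode for 31053 genes, per the file headers, with no normalization. Reads were processed with Cell Ranger against mm10, version 3.0.2 per the submitters' processing notes and, for total brain, 3.1.0 per the file headers. The matrices held 0 columns of other samples. The sources used here do not name the gene models used for counting; 30934 of 31053 gene IDs matched the GENCODE M21 annotation.

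UMIs were summed over barcodes and scaled to 1000000. Genes with at least 10 UMIs over both sides were compared as log2 of the ratio of CPM plus 1, and called at 2-fold. Clusters used scanpy 1.11.5 (1000 variable genes, 10 components, 10 neighbours, Leiden resolution 1), and trimmed-mean scaling edgeR 4.0.16. Genes were named as the 24 with the largest ratios over other barcodes (at least 200 CPM, 25% of barcodes), 12 per direction against mural cells and sorted brain, and list members; genes that set the subclusters apart were named after their values were seen. The 2-fold calls on summed levels and the Poisson intervals were tested on simulated Poisson counts. The barcode rule, the clusters and trimmed-mean scaling were not tested in this way. Members and gene lists were chosen with earlier results of these data known. Some genes that these rules name are not reported here.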

Additional observations from a re-analysis of the deposited data

How the results depend on the processing

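No paired analysis was possible because each group was 1 pooled sample and no result came from a test. The fibroblasts numbered 118 under a looser filter (200 genes, 20% mitochondrial UMIs) and 31 under a stricter one (1000 genes, 5%). With at least 3 rule genes there were 121 (1.29% of filtered barcodes) and with at least 5 there were 44 (0.470%). With no limit on endothelial genes there were 106 (1.13%). Without barcodes holding markers of another counted class there were 31 (0.331%), where neuronal and mural markers were not counted. Leaving out each suffix in turn gave 38 to 64 barcodes and shares of 0.664% to 0.773%. Without the mixed and pericyte-gene-led barcodes the share was 0.502%; that choice, equal weight per barcode and all settings for the pairs of sets were added after the data were seen.

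The minimum of UMIs sets how many genes are compared. With no minimum, 4740 genes were higher and 2312 lower than in mural cells, 6760 and 2815 than in the sorted barcodes, 4405 and 3971 between the Slc6a13-led and Slc47a1-led sets, and 3362 and 3896 between the Slc47a1-led and the sorted Slc47a1 barcodes. With a minimum of 50 UMIs the pairs were 420 and 328, 1098 and 895, 207 and 430, and 307 and 356 in the same order. A pseudocount of 10 CPM gave 919 and 1581 against the other barcodes and 1025 and 693 against the sorted Slc47a1 barcodes. Trimmed-mean scaling gave 2610 and 2743 against the sorted barcodes and 1737 lower against the sorted Slc47a1 barcodes. The looser filter left 2348 lower than in mural cells and 749 lower than in the sorted barcodes, and equal weight per barcode 2095 lower than in the sorted barcodes. Without barcodes holding markers of another counted class, 7054 genes were lower than in the other barcodes and 985 higher than in mural cells. In that setting 1732 were higher than in the sorted barcodes. The pairs were then 816 and 854 between the sets, and 595 and 715 against the sorted Slc47a1 barcodes. The causes of these moves were not tested.

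Over the suffixes left out in turn, higher and lower genes numbered 1829 to 2000 and 4551 to 5741 against the other barcodes, 1484 to 1792 and 923 to 1232 against mural cells, and 2915 to 3920 and 1102 to 1521 against the sorted barcodes. Between the sets they numbered 714 to 1497 and 985 to 1491, lowest without suffix 3, and against the sorted Slc47a1 barcodes 1240 to 1528 and 1073 to 1293. Of 190 counts and shares under an alternative, 142 stayed within 1.5 times or the counting interval and 48 did not. Levels of single genes moved more often. Of 996 levels of named genes under an alternative, 475 stayed within the counting interval of the main level and 521 did not. Without barcodes holding markers of another counted class, 56 of 83 levels lay outside it. Without the mixed and pericyte-gene-led barcodes 52 of 83 did, and without suffix 1 it was 0 of 83. Of 83 shares with barcodes thinned, 24 were counted as unchanged and 59 as moved. Depth limits single genes: 3 UMIs are 27.5 CPM in the Slc6a13-led and 16.9 CPM in the Slc47a1-led set, and 197 CPM in the 4 pericyte-gene-led barcodes.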
